A study of Schizocardium californicum with 12 samples.

Results

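Juvenile worms of the hemichordate Schizocardium californicum were compared 3 days after a single exposure to 200 Gy of X-rays with unexposed juveniles. The comparison uses the 6 juvenile libraries of a series of 12, chosen by their labels: 3 from juveniles exposed to 200 Gy and 3 from juveniles at 0 Gy. Whole animals were pooled 5 at a time for each of them, so a replicate is a pool and not an animal. The study describes the 3 pools of a group as independent replicates. No tissue was dissected or sorted, and no strain, sex or age in days is given in the sources used here. The other 6 libraries are larvae of the same species (3 given 120 Gy and 3 given 0 Gy). They entered the fit that measured the spread between pools, and served otherwise to show where the juvenile response differed.

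Ionizing radiation breaks DNA strands and damages bases, and animal cells answer with strand break sensors, base excision repair, cell cycle arrest driven by p53 and, where repair fails, cell death. Dividing cells are lost first, whereas nerve, muscle and ciliated cells that no longer divide can persist. A whole worm holds all of these, together with gut, skin and cells of innate defence. In such whole-animal RNA, fewer cells of a type and less RNA per cell cannot be told apart. The genes carry the names of their best match in better studied animals, with a number for the copy, and the roles given below are those known for the named relatives.

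The juvenile libraries held 9718282 to 26974509 gene reads in the irradiated group and 9384973 to 20313949 in the control group. Introns held 4.42% to 5.49% of reads in irradiated libraries and 4.86% to 5.03% in control libraries, and 97.0% to 97.1% and 96.7% to 97.3% of reads had a unique place in the genome. A normalized count is a read count corrected for library size (edgeR's TMM method) and brought to a common size of 13802060 reads. In a principal component analysis of the 6 libraries, 47.5% of the variance lay on the first component, which set the irradiated libraries (33.8 to 58.2) apart from the control libraries (−62.4 to −40.7). The second component, with 18.1%, set control library 2 (−57.9) apart from the other 5 libraries (−12.7 to 38.3). In that library 165 genes with a mean of at least 20 normalized counts were over 3 times as high as in both other controls, against 11 to 32 such genes in each of the other 5 juvenile libraries. Of the 165 genes, 53 are among those called lower below, so values without control library 2 are given for each gene named here by the rule in the methods whose log2 fold change it moved by more than 0.5. Counts of list members without a library are of all members called then.

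Of 20780 genes with enough reads for a test, 2246 were higher (10.8%) and 2297 were lower (11.1%) in irradiated than in control juveniles by edgeR's quasi-likelihood test (Benjamini-Hochberg adjusted p of 0.05 or less). The rises were many and small, and the falls reached further. The median log2 fold change was 0.76 among genes called higher and −1.01 among genes called lower. A change of at least 1 log2 unit was seen in 23.1% of the rises and 51.0% of the falls, and one of at least 2 log2 units in 54 rises and 268 falls. Over all genes tested the median log2 fold change was −0.04. Genes called higher took up 24.6% of the normalized counts of irradiated juveniles and 14.7% of those of controls, and genes called lower took up 10.4% and 18.5%. The groups did not overlap for 2216 of the genes called higher and 2238 of those called lower, against 40.7% of all genes tested. The rule that picked the named genes took only genes without overlap, so for those it is no finding. Values are shares of each library's reads, so a rise or fall is relative to the rest of the RNA. Without control library 2, 1809 genes were called higher and 1882 lower, and 1635 and 1720 of these are among the genes above. Without irradiated library 1 the counts were the lowest, at 1463 higher and 1511 lower.

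**Figure D1:**
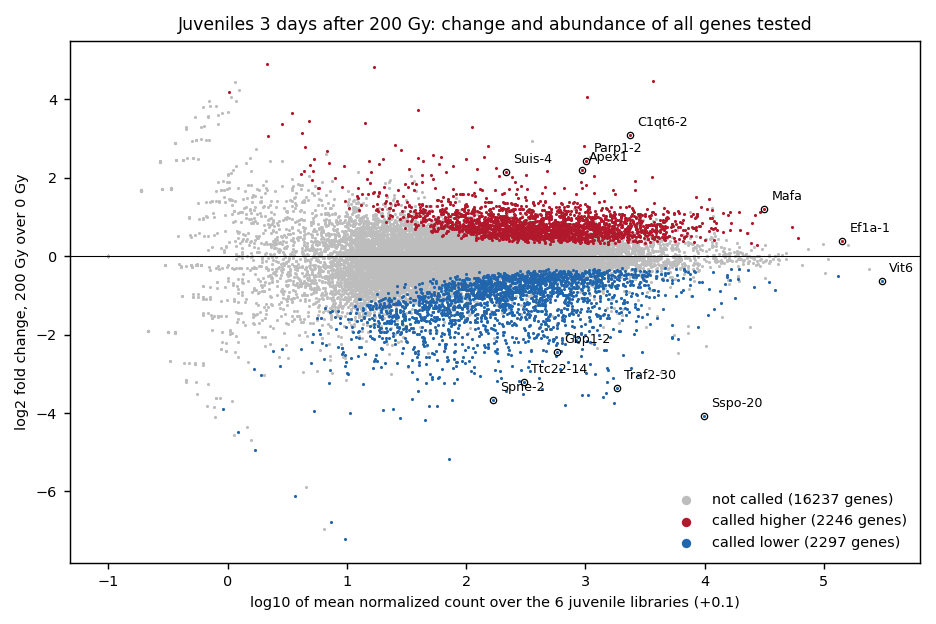
Each point is 1 of the 20780 genes tested. The horizontal axis is the log10 of the mean normalized count over the 6 juvenile libraries, the vertical axis the log2 fold change of 200 Gy over 0 Gy juveniles, red points are called higher, blue points called lower and grey points neither. Called falls extend to larger changes than called rises, and 12 genes described in the text are circled.

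The called genes differed from each other in make-up as well. Genes called higher had a median of 8 exons, and 2.54% had a single exon. Genes called lower had a median of 9 exons and 8.79% had a single exon, against 7 exons and 9.26% over all genes tested. The median share of intron reads was 3.11% in genes called higher, 6.25% in genes called lower and 6.88% over all. Members of families of at least 15 tested genes with the same name made up 3.74% of the rises and 19.2% of the falls, against 13.9% of all genes tested. By TPM (the deposited measure that corrects for transcript length), genes called higher had a median of 34.6 in irradiated and 21.1 in control juveniles, and genes called lower 7.45 and 15.8. Over all genes tested the medians were 8.64 and 9.17, so in controls both sets of called genes were more abundant. Whether these differences in make-up come from ease of detection was not tested. Both directions were spread over the genome: on the 23 chromosome sequences with at least 300 tested genes, 6.91% to 14.0% of genes were called higher and 8.33% to 15.9% lower. Uncharacterized genes made up 272 of the rises and 285 of the falls.

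Several genes of strand break and base repair rose by more than 1 log2 unit. Parp1-2 (SCA14459, on chr1A_Sc2, 23 exons), a poly(ADP-ribose) polymerase that marks broken DNA, had 1621, 1904 and 1623 normalized counts in irradiated juveniles, against 320, 296 and 344 in controls. Its log2 fold change was 2.42 ± 0.13 (SE), with an adjusted p of 4.8e-07. Every irradiated library stood far above the highest control. Apex1 (SCA23250, chr4A_Sc2, 10 exons), the endonuclease that cuts DNA at sites that have lost a base, had 1463, 1831 and 1282 normalized counts in irradiated juveniles and 354, 269 and 368 in controls (2.20 ± 0.17, adjusted p = 1.3e-05). Mdm4-1, a relative of the regulators that hold p53 in check, had 1404, 1556 and 1331 in irradiated juveniles and 431, 377 and 474 in controls (1.74 ± 0.16, adjusted p = 4.8e-05). Of 87 tested genes in the list of DNA repair and the p53 pathway, 13 rose (14.9%, against 10.8% of all genes) and 4 fell (4.6%, against 11.1%). Their median log2 fold change was 0.09. The rises also included further polymerases of the same kind (Parp2, 1.75, and Parp1-1, 1.18), members of non-homologous end joining, which joins broken ends directly (Xrcc4, Xrcc5 and Xrcc6-1, with log2 fold changes of 0.47 to 0.77), and the kinase Chk2 (0.66). These 6 are outside the naming rule and were chosen after their values were seen. The 4 falls were Brca1, Brca2 and Fanci, which serve repair by homologous recombination and of crosslinks in dividing cells, and Xpc, a sensor of bulky lesions (the naming rule leaves out Fanci). Brca1 had 20.5, 18.2 and 14 normalized counts in irradiated juveniles and 46.7, 32.7 and 48.8 in controls, a log2 fold change of −1.32 ± 0.29 (adjusted p = 0.0059). The call of Xpc (−0.70) was lost without control library 3 (adjusted p = 0.0688) and with all libraries thinned to the smallest total (0.0574), and 2 of the 4 falls were called without that control.

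Genes of cell division fell. Of 55 tested genes in the list of mitosis and cytokinesis, 26 fell and 1 rose, with a median log2 fold change of −0.61. Anln (SCA25739, chr13A_Sc2, 16 exons), anillin of the contractile ring, had 22.6, 7.02 and 27.9 normalized counts in irradiated juveniles and 144, 103 and 188 in controls (−2.81 ± 0.33, adjusted p = 0.000177). Ki67-1, named for the proliferation antigen, had 191, 163 and 163 normalized counts in irradiated juveniles and 468, 366 and 588 in controls (−1.47 ± 0.17, adjusted p = 0.000158). Nusap, a spindle protein, was at 17.2, 14 and 16 in irradiated juveniles and at 97.3, 57.6 and 138 in controls (−2.64 ± 0.29, adjusted p = 0.000113). Control library 2 was the lowest control for all 3 genes. The summed TPM of the list, by contrast, was 158, 194 and 180 in irradiated juveniles and 266, 190 and 292 in controls, so there control library 2 lay within the irradiated range. The list's only rise, of Md2l2 (1.15), was lost in 7 of the other settings tried, among them without control library 2 or 3 or any one of the irradiated libraries.

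Of 54 tested genes of DNA replication, 13 fell (24.1%, against 11.1% of all genes) and 4 rose (7.41%, against 10.8%). Their median was −0.22. Paf15, a clamp-associated factor of the replication fork, had 10.8, 18.2 and 18.1 normalized counts in irradiated juveniles and 86.9, 56.1 and 119 in controls (−2.47 ± 0.36, adjusted p = 0.000597). Rir2-2, the small subunit of the ribonucleotide reductase that makes DNA precursors, was at 49.6, 46.3 and 54.8 in irradiated juveniles and 230, 150 and 245 in controls (−2.04 ± 0.26, adjusted p = 0.000303). For both, control library 2 was the lowest control. Mcm2, a subunit of the replicative helicase, fell by 0.94 on the log2 scale (adjusted p = 0.000656). Among the rises, Mcm10 is a special case: introns held 67.2% of its reads, and by exon reads alone its log2 fold change was −0.06. Without control library 3 the falls in this list numbered 7, and at most 1 of the 4 rises was called without control library 1 or 3 or any one of the irradiated libraries. Only 11 of the 196 genes named for histones had enough reads for a test. The linker histone gene H1d, which compacts chromatin, was at 1816, 1485 and 1551 normalized counts in irradiated juveniles and 5519, 4856 and 5811 in controls (−1.74 ± 0.12, adjusted p = 6.1e-06). H2ay, named for the variant macro-H2A, moved the other way, with 2920, 2623 and 2417 in irradiated juveniles and 905, 785 and 968 in controls (1.58 ± 0.13, adjusted p = 1.5e-05). H4-25 also fell (−1.40) and H2a-9 also rose (1.00), so 2 of the 11 tested histone genes were called in each direction.

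Many genes in the list of nucleotide synthesis rose. Of the 28 tested genes, 13 rose and 1 fell, with a median of 0.55. Pur9-2, which closes the purine ring in the last steps of de novo synthesis, had 476, 555 and 464 normalized counts in irradiated juveniles and 134, 188 and 133 in controls (1.73 ± 0.16, adjusted p = 4.8e-05). Kad8-1 (1.05), named for an adenylate kinase, and Ndk5 (0.90), named for a nucleoside diphosphate kinase, rose as well. Whether Kad8-1 and Ndk5 serve nucleotide synthesis was not tested. The fall of Imdh1-1 (−0.31) was lost in 11 of the other settings, and whenever a juvenile library was left out. The list thus held rises in 46.4% of its members, where 10.8% of all genes rose.

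The proteasome, the barrel-shaped protease that degrades ubiquitin-tagged proteins, rose almost as a whole. Of 36 tested genes in the list of its subunits and regulators (38 in the files), 32 rose and none fell. At an unadjusted p under 0.05, 1 fell, and none by DESeq2 or limma voom. The median log2 fold change was 0.88, with values from −0.27 to 1.38. Psa6, an alpha subunit of the barrel (SCA14775, chr1A_Sc2, 7 exons), had 1901, 1759 and 1940 normalized counts in irradiated juveniles, against 737, 690 and 728 in controls (1.38 ± 0.14, adjusted p = 6.4e-05). Psa5 had 924, 882 and 1020 in irradiated juveniles and 372, 408 and 396 in controls (1.26 ± 0.12, adjusted p = 4.7e-05), and the beta subunit Psb2 rose by 1.18. The summed TPM of the list was 3818, 4098 and 3841 in irradiated juveniles and 2104, 2230 and 2083 in controls, and the groups lay far apart. The count of rises stayed at 31 or 32 whichever juvenile library was left out, and at 30 with an adjusted p of 0.01 or less. The 4 list members not called were Psme4, Adrm1, Psmd5 and Psd3, which lie outside the naming rule and had log2 fold changes of −0.27 to 0.28. Members were matched by name, and whether Psd3 is a proteasome gene was not tested. Chaperones moved in part with the proteasome: 12 of 42 rose and none fell (median 0.26). Of the 12, 8 belong to the TCP-1 ring complex that folds actin and tubulin. Among them Tcpz-1 had 3052, 3334 and 2891 normalized counts in irradiated juveniles and 1189, 1481 and 1221 in controls (1.25 ± 0.14, adjusted p = 0.00011), and Tcph rose by 1.24.

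Genes named for large families of E3 ubiquitin ligases fell more often than they rose. Of 448 tested genes in these families (662 in the files), 117 fell (26.1%, against 11.1% of all genes) and 5 rose (1.12%). Their median was −0.58. Whether these ligases tag proteins for the proteasome was not tested. Their summed TPM was 2240, 2472 and 2519 in irradiated juveniles and 3902, 4044 and 3885 in controls. Neul4-1 (SCA00209, chr8A_Sc2, 12 exons), a neuralized-like protein, had 220, 232 and 250 normalized counts in irradiated juveniles and 1009, 1104 and 987 in controls (−2.14 ± 0.14, adjusted p = 6.1e-06). Dzip3-14, a RING-type ligase, had 170, 173 and 201 in irradiated juveniles and 528, 576 and 582 in controls (−1.63 ± 0.17, adjusted p = 7.8e-05). The falls clustered by name: 12 of 24 tested Neul4 genes, 16 of 26 Rn213 genes, 14 of 34 Dtx3l genes and 7 of 21 Dzip3 genes were lower. Copies of one family can share reads, and 23 of the called members of the list had fewer than 80% of their reads in a unique place. Tri32 (0.73), Rn121 (0.62) and Trim2-36 (0.77) were among the 5 rises, of which 2 or 3 were called when any juvenile library but control library 2 was left out.

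**Figure D2:**
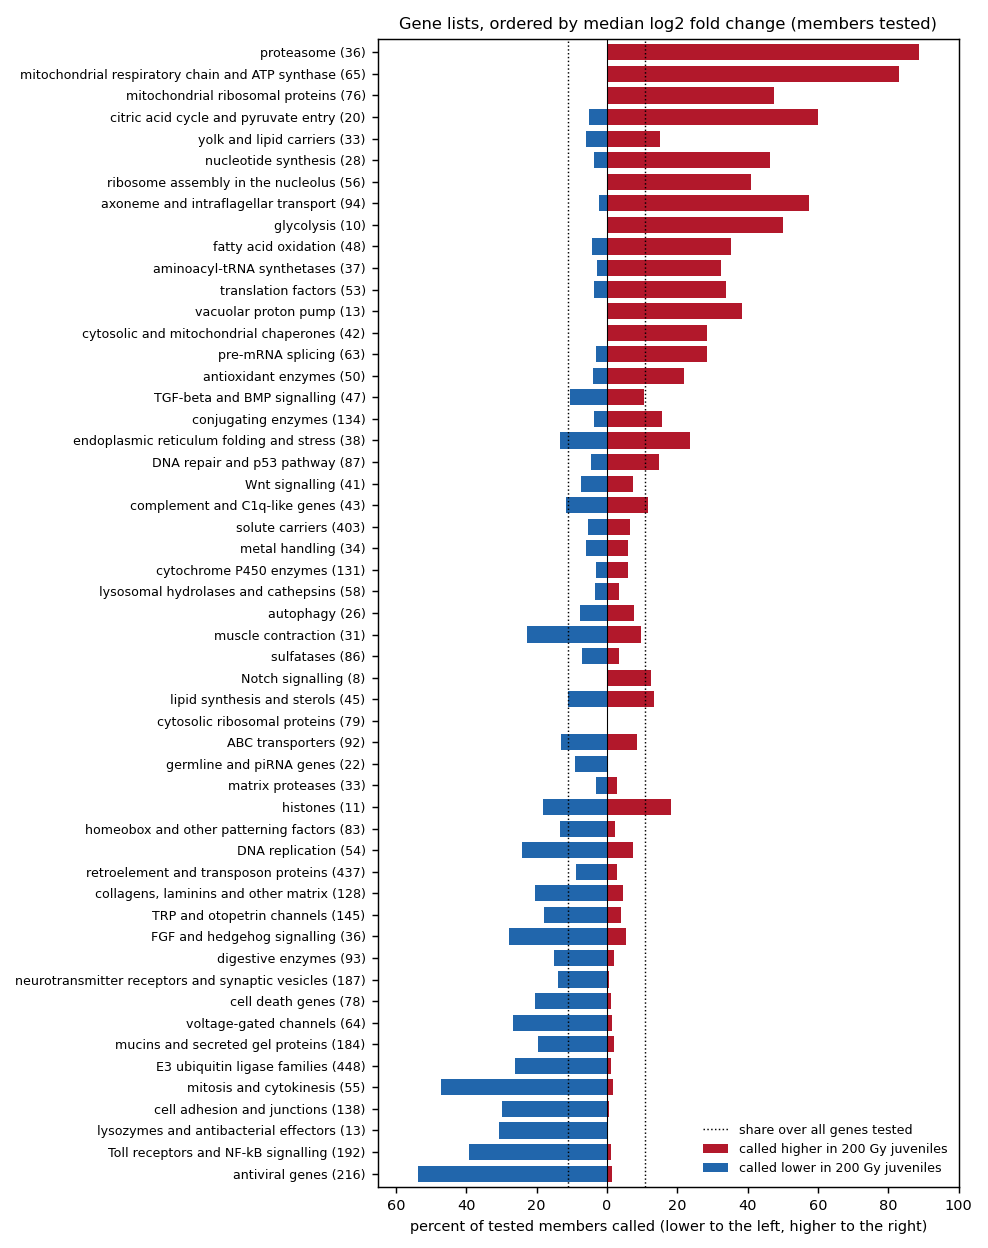
Bars give the percent of tested members of each of 53 gene lists called higher (red, to the right) or lower (blue, to the left) in 200 Gy against 0 Gy juveniles, with the number of members tested in brackets and lists ordered by median log2 fold change. Dotted lines mark the 10.8% of all genes called higher and the 11.1% called lower. Proteasome, respiratory chain and citric acid cycle lists hold the largest shares of rises, and the antiviral, mitosis and Toll lists the largest shares of falls.

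The machinery of energy metabolism rose together. Of 65 nuclear genes for the mitochondrial respiratory chain and ATP synthase, 54 rose and none fell (none at an unadjusted p under 0.05 either, nor by DESeq2 or limma voom). The median was 0.65, and a single member had a log2 fold change below 0, Ndus3 (−0.02), which the naming rule leaves out. Qcr6-1, a subunit of the cytochrome bc1 complex (SCA00395, chr8A_Sc2, 8 exons), had 1548, 1342 and 1343 normalized counts in irradiated juveniles and 555, 615 and 520 in controls (1.33 ± 0.12, adjusted p = 4.4e-05). Qcr2 of the same complex rose by 1.05, and Cx6b1 of cytochrome c oxidase by 0.96. The list's summed TPM was 23298, 24067 and 21273 in irradiated juveniles and 14616, 14579 and 14923 in controls, with no overlap. Between 42 and 55 members rose when 1 juvenile library was left out.

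Genes of pathways that feed the mitochondrion also rose. In the citric acid cycle and pyruvate entry, 12 of 20 genes rose and 1 fell (median 0.57). Suca, a subunit of succinyl-CoA ligase, had 634, 614 and 489 normalized counts in irradiated juveniles and 214, 243 and 225 in controls (1.35 ± 0.14, adjusted p = 7.2e-05). Idhp and Mdhm, the mitochondrial isocitrate and malate dehydrogenases, each rose by 1.12, whereas the cytosolic isocitrate dehydrogenase gene Idhc was the fall (−0.77), a call lost without irradiated library 2. In fatty acid oxidation 17 of 48 genes rose and 2 fell (median 0.46). Echb, the thiolase subunit of the trifunctional enzyme, had 1614, 1462 and 1319 in irradiated juveniles and 589, 620 and 605 in controls (1.28 ± 0.11, adjusted p = 4.1e-05), and its partner subunit gene Echa rose by 1.29. The 17 rises became 8 without irradiated library 1, 9 without control library 1, and 10 without control library 3 or irradiated library 2, and 1 of the 2 falls was called without control library 1 or 3 or irradiated library 1 or 3. In glycolysis 5 of 10 genes rose and none fell, led by the hexokinase gene Hxk1-1 (0.98) and with Pgk (0.71) and Tpis (0.50) among them. That count was 3 without any one of the controls or without irradiated library 1 or 2. Of 13 genes of the vacuolar proton pump, which acidifies lysosomes, 5 rose by 0.47 to 0.66, among them Vata-1, Vatd and Vatg1, and 3 without control library 1 or 2 or irradiated library 1 or 3.

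Genes of the mitochondrial ribosome rose, and none of the cytosolic ribosome was called. Of 76 mitochondrial ribosomal protein genes, 36 rose and none fell, with a median of 0.59 and 75 of the 76 values above 0. Rm47 had 174, 147 and 147 normalized counts in irradiated juveniles and 72.6, 51.4 and 81.8 in controls (1.16 ± 0.21, adjusted p = 0.00198), and Rm35 rose by 1.04. Of 79 tested cytosolic ribosomal protein genes, none was called in either direction by edgeR, DESeq2 or limma voom (1 was higher at an unadjusted p under 0.05), and the median was −0.06. Their summed TPM was 245328, 230355 and 224370 in irradiated juveniles and 251354, 245587 and 243705 in controls. Genes that assemble ribosomes in the nucleolus rose in 23 of 56 cases and fell in none (median 0.54). Brx1 had 199, 205 and 204 normalized counts in irradiated juveniles and 86.9, 99.7 and 92.1 in controls (1.13 ± 0.19, adjusted p = 0.00144), and Rpf2 rose by 1.01. The 23 rises were 11 without irradiated library 2, 13 without control library 1 and 14 without irradiated library 1. A counterexample among nucleolar proteins outside the list was Ddx21, an RNA helicase, with 28941, 24359 and 29900 normalized counts in irradiated juveniles and 48273, 51955 and 51139 in controls (−0.86 ± 0.13, adjusted p = 0.000658).

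Among translation factors 18 of 53 rose and 2 fell (median 0.32). The initiation factor subunit genes Eif3k-1 (1.12) and Eif3h (0.93) were among the rises, whereas both falls were genes for elongation factor 2. Ef2-1 had 115517, 101901 and 105835 normalized counts in irradiated juveniles and 141911, 171409 and 143447 in controls (−0.50 ± 0.11, adjusted p = 0.00638). Ef1a-1, the other major elongation factor gene, had 177112, 159969 and 148834 in irradiated juveniles and 117596, 138444 and 115454 in controls (0.39 ± 0.11, adjusted p = 0.0292). Its call was lost without control library 1 or 3 or irradiated library 1 or 2 (adjusted p of 0.0630 to 0.111). The 18 rises were 10 without control library 1 or 3 and 11 without irradiated library 1, and 1 of the 2 falls was called without control library 3 or irradiated library 2 or 3. Aminoacyl-tRNA synthetases, which charge tRNAs, rose in 12 of 37 cases and fell in 1 (median 0.33), with Syk-1 at 1.10 and Syac-2 at 0.90, and 6 or 7 rose without control library 1 or irradiated library 1 or 2. The fall was lost without control library 2 or irradiated library 1 or 2. In pre-mRNA splicing 18 of 63 rose and 2 fell (median 0.24), Sf3b4 by 0.88 and Ru2a-1 by 0.78, while Sf3b1-1 had a log2 fold change of −0.67. Of these 2 falls 1 was called without control library 1 or 3 or irradiated library 2 or 3. Ybox1-1, an mRNA-binding protein outside these lists, was among the 6 largest gains in count taken by the naming rule, with 76502, 65603 and 59265 in irradiated juveniles and 37557, 44109 and 38073 in controls (0.75 ± 0.12, adjusted p = 0.00114).

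Of 38 tested genes of folding and stress in the endoplasmic reticulum, 9 rose (23.7%) and 5 fell (13.2%, near the 11.1% of all genes), with a median of 0.10. The protein disulfide isomerase genes Pdia3-1, Pdia4-1 and Pdia6 had log2 fold changes of 0.78 to 0.96, whereas 3 genes named for Ern1, the sensor kinase of unfolded proteins, fell. Ern1-3 had 87.3, 99.7 and 171 normalized counts in irradiated juveniles and 518, 687 and 433 in controls (−2.16 ± 0.25, adjusted p = 0.000174). The 9 rises were 4 without control library 1 or irradiated library 1 and 5 without control library 3, and the 5 falls were 3 without any juvenile library but irradiated library 3. In autophagy 2 of 26 genes rose and 2 fell, and in the lysosomal hydrolases and cathepsins 2 of 58 each (both medians −0.02). These shares, 7.69% and 3.45% each way, were under those of all genes. The rises in autophagy were at most 1 when any juvenile library was left out, and 1 of its falls was called without any one library but control library 2. Of the lysosomal rises 1 was called without control library 3 or irradiated library 2 or 3. Catl-2, a cathepsin L gene, had a log2 fold change of −2.83, and of −1.99 without control library 2.

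**Figure D3:**
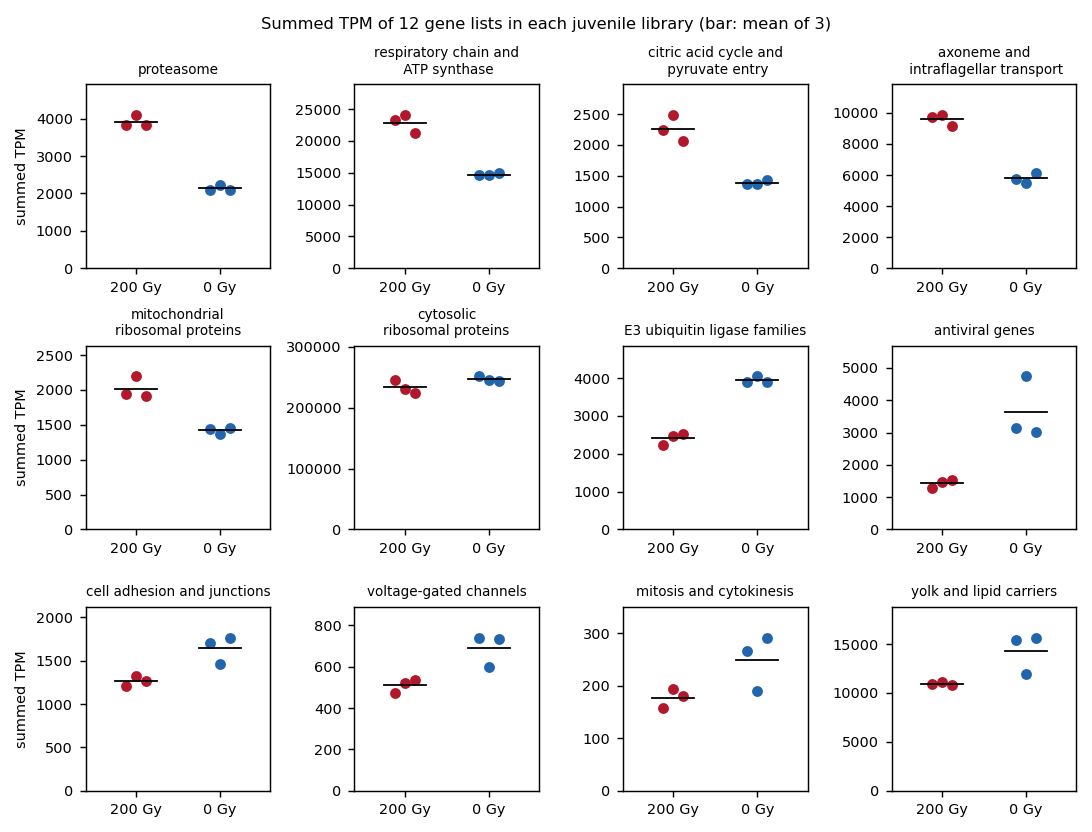
Points are the summed deposited TPM of 12 gene lists in each juvenile library, 200 Gy on the left (red) and 0 Gy on the right (blue), with the mean of 3 libraries as a black bar and vertical axes from 0. The proteasome, respiratory chain, citric acid cycle, axoneme and mitochondrial ribosome sums are higher in every 200 Gy library than in any 0 Gy library. The E3 ligase, antiviral, adhesion, channel and yolk sums are lower. The yolk sum goes against its list, whose median log2 fold change is 0.57, with 25 members above 0 and 7 below. The 2 groups overlap in the mitosis and the cytosolic ribosome sums.

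Ciliary genes rose. Of 94 tested genes of the axoneme and intraflagellar transport, which build and supply the beating core of cilia, 54 rose and 2 fell, with a median of 0.50. Their summed TPM was 9729, 9866 and 9157 in irradiated juveniles and 5739, 5467 and 6142 in controls. Dyi3-1, an intermediate chain of axonemal dynein (SCA02816, chr2A_Sc2, 16 exons), had 4133, 3913 and 3545 normalized counts in irradiated juveniles and 1759, 1844 and 1908 in controls (1.07 ± 0.12, adjusted p = 0.00011). Rsph9 of the radial spoke rose by 1.04 and Spag6 of the central apparatus by 1.12. The 2 falls, Spag1-3 and Spag1-4, are outside the naming rule and belong to a gene known for dynein assembly. At most 1 of them was called when any juvenile library was left out. Tubulins, the building blocks of all microtubules, were among the largest gains in count: Tba1a-6 had 43765, 42499 and 32180 in irradiated juveniles and 18526, 18015 and 18076 in controls (1.12 ± 0.23, adjusted p = 0.00431). Tba1a-13 rose by 1.13. Tbb4b-1 had a log2 fold change of 0.47 that lost its call in 8 of the other settings (adjusted p up to 0.182).

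Genes of the nervous system were called lower more often than higher. Of 187 tested genes for neurotransmitter receptors and synaptic vesicles, 26 fell (13.9%, near the 11.1% of all genes). Of the rest 1 rose (0.535%, against 10.8%), and the median was −0.35. Gria1-2, an AMPA-type glutamate receptor, had 372, 319 and 318 normalized counts in irradiated juveniles and 935, 804 and 976 in controls (−1.43 ± 0.24, adjusted p = 0.00113). Syt17-2, a synaptotagmin-like gene, had 39.9, 36.5 and 40.3 in irradiated juveniles and 119, 106 and 108 in controls (−1.50 ± 0.22, adjusted p = 0.000569). The NMDA-type receptor gene Nmd3a-1 fell by 0.89, and the rise was of a GABA receptor subunit gene, Gbra5 (0.70), with 2 rises without irradiated library 2. The 26 falls were 14 without control library 1, 16 without irradiated library 1 and 15 without irradiated library 2. Over all genes the 2297 falls were 1617, 1511 and 1532 without the same libraries. Among voltage-gated channels 17 of 64 fell (26.6%, against 11.1% of all genes) and 1 rose (median −0.42). Kcnt1, a sodium-activated potassium channel, had 220, 265 and 276 normalized counts in irradiated juveniles and 564, 448 and 527 in controls (−1.01 ± 0.14, adjusted p = 0.000421). The calcium channel subunit gene Ca2d1 (−1.02) and the potassium channel gene Kcnh8 (−1.06) fell as far. This list had 11 falls without control library 3 or irradiated library 2, and its rise was lost without control library 2 or 3 or irradiated library 3.

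Sensory and ion channels of the TRP, polycystin and otopetrin families fell in 26 of 145 cases (17.9%, against 11.1% of all genes). They rose in 6 (4.14%, against 10.8%), and the median was −0.31. Trpa1-12, named for the irritant-sensing channel, was at 71.1, 54.8 and 92.5 normalized counts in irradiated juveniles and at 637, 1146 and 581 in controls (−3.40 ± 0.32, adjusted p = 4.8e-05). Otop3-2, a proton channel gene, had 48.5, 95.5 and 114 in irradiated juveniles and 379, 642 and 402 in controls (−2.44 ± 0.30, adjusted p = 0.000215), with 56% of its reads in introns. Both had their highest value in control library 2. The falls were 16 without control library 3, and the 6 rises were 3 without that library or irradiated library 1.

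Muscle genes were mixed. Of 31 tested genes of contraction, 7 fell (22.6%, against 11.1% of all genes) and 3 rose (9.68%, against 10.8%). Their median was −0.04. The summed TPM was 10141, 11658 and 10988 in irradiated juveniles and 10824, 10432 and 11597 in controls, which overlap. The falls include the giant spring proteins of the sarcomere: Titin-6 had 117, 105 and 167 normalized counts in irradiated juveniles and 361, 682 and 425 in controls (−1.89 ± 0.27, adjusted p = 0.000569), and Titin-5 fell by 1.34. The rises were of the regulatory light chain genes Mlc2-1 (0.95) and Myl9-2 (0.73) and of Csrp2-1 (0.97), a LIM protein gene. Myh16, a myosin heavy chain gene, had 18175, 21238 and 18085 in irradiated juveniles and 30718, 34607 and 32994 in controls (−0.77 ± 0.23, adjusted p = 0.0287). Its call was lost when any 1 of the 6 juvenile libraries was left out (adjusted p of 0.0516 to 0.0892), and 2 to 4 of the 7 falls were still called then. The rises were 5 without irradiated library 3.

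Cell adhesion genes fell as well. Of 138 tested members of the adhesion and junction list, 41 fell and 1 rose, with a median of −0.65. Ncam2-1, a neural cell adhesion molecule, had 84.0, 143 and 205 normalized counts in irradiated juveniles and 529, 1061 and 768 in controls (−2.42 ± 0.33, adjusted p = 0.000379). Dscam-4, of the Down syndrome cell adhesion molecule family, had 452, 473 and 433 in irradiated juveniles and 1126, 922 and 1001 in controls (−1.17 ± 0.16, adjusted p = 0.000395). Of 38 Cad96 cadherins 19 fell, Cad96-41 among them (−1.34). The rise in the list was of Cad89 (1.59), and 2 rose without irradiated library 3. The list had 24 or 25 falls without control library 1 or 3 or irradiated library 1 or 2, and its summed TPM was 1204, 1326 and 1263 in irradiated juveniles and 1703, 1460 and 1766 in controls.

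In the extracellular matrix 26 of 128 genes fell and 6 rose (median −0.26). Tsp1-17, a thrombospondin, had 35.5, 18.2 and 49.1 normalized counts in irradiated juveniles and 285, 470 and 427 in controls (−3.44 ± 0.42, adjusted p = 0.000204). Tenr-5, a tenascin, had a log2 fold change of −2.42, with 73.1% of its reads in introns, and of −4.2 on exon reads alone. Hmcn1-39, a hemicentin, fell by 1.61. Among the rises was the basement membrane collagen IV gene Co4a2, with 8444, 7931 and 7394 normalized counts in irradiated juveniles and 5518, 5405 and 5871 in controls (0.50 ± 0.11, adjusted p = 0.00605), and with it Fbn3-1 (0.63), a fibrillin, and Cspg2-6 (1.39), a proteoglycan. The 26 falls were 12 to 16 without any single juvenile library other than control library 2. Of 33 matrix protease genes 1 rose and 1 fell (3.03% each, under the 10.8% and 11.1% of all genes). They were Ats9-6 (1.33, and 1.85 without control library 2) and Ats20-4 (−1.21). The rise was lost without control library 1 or 3 and was joined by 2 others (3 in all) without control library 2, and 2 fell without any one juvenile library but irradiated library 2. Of 86 sulfatases 3 rose (3.49%) and 6 fell (6.98%), both under the shares of all genes. Arsb-63 had 277, 121 and 202 in irradiated juveniles and 1105, 762 and 727 in controls (−2.10 ± 0.25, adjusted p = 0.000183). Of the 3 rises 1 was called without control library 2 or irradiated library 2, and none without irradiated library 1.

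Gut and secretion genes fell in part. Of 93 tested digestive enzyme genes, 14 fell (15.1%, against 11.1% of all genes) and 2 rose (2.15%, against 10.8%), with a median of −0.33. Falls among these enzymes numbered 10 to 13 when 1 juvenile library was left out. The astacin protease gene Nas6 had 270, 233 and 292 normalized counts in irradiated juveniles and 901, 788 and 1011 in controls (−1.76 ± 0.28, adjusted p = 0.000835), and the aminopeptidase gene Ampn-24 fell by 0.96. Suis-4, named for the intestinal enzyme that splits sucrose and starch fragments, rose: it had 286, 520 and 264 in irradiated juveniles and 90.8, 49.8 and 93.5 in controls (2.15 ± 0.33, adjusted p = 0.000731). Among mucins and secreted gel proteins 36 of 184 fell and 4 rose (median −0.53), with 2 rises without control library 1 and 1 without irradiated library 1. Sspo-20, of the SCO-spondin family of secreted fibre proteins, had 998, 1008 and 1272 normalized counts in irradiated juveniles and 2977, 50471 and 2208 in controls, for a log2 fold change of −4.08 ± 0.92 (adjusted p = 0.00711) with control library 2 and of −1.24 (adjusted p = 0.000924) without it. Fcgbp-10, a mucus-associated protein, had 30219, 25861 and 24994 in irradiated juveniles and 36495, 45885 and 46069 in controls (−0.66 ± 0.15, adjusted p = 0.0069). In the list of lysozymes and antibacterial effectors 4 of 13 fell and none rose, at an unadjusted p under 0.05 either or by DESeq2 or limma voom, and 2 fell without irradiated library 2 or 3. The named falls are not of lysozymes but of Bgbp-2, a glucan-binding protein, with 10.8, 23.9 and 37.7 in irradiated juveniles and 319, 196 and 67.3 in controls (−2.92 ± 0.52, adjusted p = 0.00171), and of Bpi-1 (−1.60), a lipopolysaccharide-binding protein.

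Among lipid genes, Vit6, a gene named for a yolk protein, had 259542, 235635 and 219342 normalized counts in irradiated juveniles and 389252, 329285 and 398200 in controls (−0.64 ± 0.18, adjusted p = 0.0252). Its loss in count was the largest of any gene named, but its call was lost without control library 1 or 3, without irradiated library 2 or 3 (adjusted p of 0.0738 to 0.0806) and with the replicate block (0.0631). Of 33 tested yolk and lipid carrier genes 5 rose (15.2%, against 10.8% of all genes) and 2 fell (6.06%, against 11.1%). Their median was 0.57, and all 5 rises were of intracellular fatty acid binding proteins. Fabpl-7 had 232, 91.3 and 288 in irradiated juveniles and 37.6, 34.3 and 57.0 in controls (2.22 ± 0.45, adjusted p = 0.00388), Fabpl-5 rose by 1.01, and Fabpl-12 fell by 1.45. Those 5 rises were 2 or 3 when any juvenile library was left out, and 1 of the 2 falls was called without control library 1 or 3 or irradiated library 2 or 3. In lipid synthesis 6 of 45 rose (13.3%) and 5 fell (11.1%), near the shares of all genes (median −0.06). All 5 falls were of genes named for fatty acid synthase, such as Fas-13, with 2123, 1567 and 2484 in irradiated juveniles and 7141, 11931 and 6653 in controls (−2.06 ± 0.33, adjusted p = 0.00105). The rises were of chain elongation and activation genes, among them Elov7, with 343, 334 and 362 in irradiated juveniles and 161, 103 and 145 in controls (1.34 ± 0.18, adjusted p = 0.000332), and Acsl5-1 (1.15), and of Npc2-1 (0.70), which carries sterols out of lysosomes.

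Enzymes of detoxification and transporters were called in both directions. Of 131 tested cytochrome P450 genes 8 rose and 4 fell (median 0.00), both under the background share, with 5 rises without control library 1 or irradiated library 3 and 0 to 2 falls without any juvenile library but control library 2. Cp2u1-35 was the exception in size, with 63.6, 74.4 and 83.2 normalized counts in irradiated juveniles and 6.49, 3.12 and 6.18 in controls (3.72 ± 0.35, adjusted p = 4.8e-05). Of 134 conjugating enzymes 21 rose (15.7%) and 5 fell (median 0.17). The named rises are glutathione transferases: Gst1-2 had 460, 358 and 312 in irradiated juveniles and 147, 181 and 135 in controls (1.29 ± 0.18, adjusted p = 0.000427), and Gst-2 rose by 1.17. The sulfotransferase gene St1a1-6 fell by 1.72. The 21 rises were 11 without control library 1 or irradiated library 1 and 13 without control library 2, and the 5 falls 3 without control library 3 or irradiated library 1 or 2. Of 50 antioxidant enzymes 11 rose (22%, against 10.8% of all genes) and 2 fell (median 0.22), Gpx1-1 and the mitochondrial thioredoxin Thiom by 1.03 each, with 7 rises without irradiated library 1 or 2, and with 1 fall without control library 2 or irradiated library 1 and none without irradiated library 3. Of 403 solute carriers 27 rose and 22 fell (median 0.03), so that 6.7% and 5.46% lie under the background shares of 10.8% and 11.1%. The rises were 11 to 17 without control library 1 or 2 or irradiated library 1 or 3, and the falls 10 to 14 without control library 1 or 3 or irradiated library 1 or 2. Nckx6-4, of the sodium/calcium exchangers, had 31.2, 36.5 and 37.7 in irradiated juveniles and 253, 470 and 252 in controls (−3.19 ± 0.31, adjusted p = 6.0e-05). Of 92 ABC transporters 8 rose (8.7%) and 12 fell (13.0%), near the background shares (median −0.07). Among the rises Abce1 (0.84) and Abcf2 (1.30) are not membrane pumps but relatives of proteins that act at the ribosome. Of the 12 falls 9 are named for multidrug resistance proteins, Mrp5-7 (−1.36) among them. These rises were 5 without control library 1 or irradiated library 1 or 2, and the falls 5 to 7 without control library 1 or 3 or irradiated library 1 or 2. In metal handling 2 of 34 rose and 2 fell (5.88% each, under the background shares). The copper pump gene Atp7a-2 had 295, 334 and 309 in irradiated juveniles and 1423, 1311 and 1527 in controls (−2.19 ± 0.21, adjusted p = 6.1e-05), and the ferritin gene Fris-1 rose by 0.70.

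The antiviral list held the largest share of falls of the 53 lists. Of 216 tested antiviral genes 116 fell and 3 rose (median −1.23). Of 192 genes of Toll receptors and NF-kB signalling 75 fell and 2 rose (median −0.83), with 1 rise when any juvenile library was left out. Fewer than 80% of reads had a unique place in 8 of the called antiviral genes and 16 of the called Toll and NF-kB genes. Gbp1-2, a guanylate-binding GTPase (SCA02447, chr2A_Sc2, 20 exons), had 174, 173 and 191 normalized counts in irradiated juveniles and 1000, 1025 and 910 in controls (−2.44 ± 0.15, adjusted p = 2.7e-06). Rel-2, an NF-kB transcription factor, had 463, 404 and 481 in irradiated juveniles and 1464, 2071 and 1573 in controls (−1.92 ± 0.14, adjusted p = 1.2e-05). Traf2-30, an adaptor of the pathway, was at 298, 284 and 391 in irradiated juveniles and 2620, 4558 and 2801 in controls (−3.35 ± 0.28, adjusted p = 2.6e-05). All 3 had their highest value in control library 2. The summed TPM of the antiviral list was 1290, 1468 and 1522 in irradiated juveniles and 3138, 4741 and 3029 in controls, the highest again in control library 2, and without that library 102 genes fell with a median of −1.11. Helz2-2, a helicase gene, had a log2 fold change of −3.54 with that library and of −2.87 without it. Of 78 cell death genes 16 fell and 1 rose (median −0.40). Of the falls 5 are named for Casp8, an initiator caspase. Casp8-11 had 202, 267 and 249 in irradiated juveniles and 593, 712 and 574 in controls (−1.39 ± 0.14, adjusted p = 8.3e-05), and Casp8-29 was the rise (0.88). The 16 falls were 9 without irradiated library 1.

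Of 43 complement and C1q-like genes 5 were called in each direction (11.6%), near the shares of all genes. C1qt6-2 (SCA21077, chr16A_Sc2, 2 exons), a small secreted protein with a C1q domain, had 6050, 4024 and 2639 normalized counts in irradiated juveniles and 510, 396 and 570 in controls (3.10 ± 0.26, adjusted p = 2.2e-05). C1qt6-1 had 148, 75.8 and 46.0 in irradiated juveniles and 14.3, 20.2 and 11.7 in controls (2.57 ± 0.42, adjusted p = 0.00109). The falls included Cfab-2 (−1.01), of complement factor B. They were 2 without irradiated library 1 or 2.

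Of 41 genes in the Wnt signalling list 3 rose and 3 fell, of 47 in the TGF-beta and BMP list 5 rose and 5 fell, and of 8 in the Notch list 1 rose and none fell (1 at an unadjusted p under 0.05, none by DESeq2 or limma voom). These are 7.32% each way for Wnt, 10.6% each way for TGF-beta and 12.5% rises for Notch. The shares over all genes were 10.8% rises and 11.1% falls. The Wnt counts went down to 1 when most single libraries were left out (falls without any but control library 2, rises without control library 1 or 2 or irradiated library 1). The TGF-beta rises were 8 without control library 2 and 3 without irradiated library 1, and the Notch rise was lost without any library but irradiated library 3. Sfrp5-1, a secreted antagonist of Wnt, had 1602, 1964 and 1739 normalized counts in irradiated juveniles and 564, 559 and 605 in controls (1.62 ± 0.12, adjusted p = 1.2e-05). Wn11b-2, a Wnt ligand whose name the list did not match, had 97.0, 149 and 90.0 in irradiated juveniles and 31.1, 15.6 and 26.8 in controls (2.15 ± 0.38, adjusted p = 0.00187). Dl, named for the Notch ligand Delta and likewise outside the list, had 183, 152 and 380 in irradiated juveniles and 38.9, 67.0 and 24.7 in controls (2.54 ± 0.49, adjusted p = 0.00281). The BMP antagonist genes Nogg2 (1.08) and Nogg3-1 (1.09) and the ligand gene Tgfb2-2 (1.04) rose, while the type II receptor gene Bmpr2 (−0.52) fell. In the FGF and hedgehog list 10 of 36 fell (27.8%, against 11.1% of all genes) and 2 rose (median −0.32), and all 10 falls were of genes named for FGF receptors, such as Fgfr4-3 with 60.3, 70.2 and 53.8 in irradiated juveniles and 141, 104 and 173 in controls (−1.20 ± 0.26, adjusted p = 0.00576). The rises were of the ligand gene Fgf9-1 (1.23) and of Fgfr-2 (0.87). The paper describes 2 FGF receptors in hemichordates, fewer than the genes that carry such names here. Which of these genes are FGF receptors was not tested.

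Of 83 homeobox and other patterning factors 11 fell (13.3%, near the 11.1% of all genes) and 2 rose (2.41%, against 10.8%), with a median of −0.12. Po4f3, a POU factor of sensory neurons in vertebrates, had 155, 154 and 174 normalized counts in irradiated juveniles and 342, 322 and 352 in controls (−1.07 ± 0.17, adjusted p = 0.00107). Sox17-2 (−0.67), named for an endoderm factor, and Gata2-1 (−0.72) fell, and Six3 (0.72), an anterior marker of deuterostomes, rose. The 11 falls were 5 to 7 without any juvenile library but control library 2, and the 2 rises 1 without irradiated library 1. Outside the list, the bZIP factor gene Mafa was 1 of the 6 largest gains in count taken by the naming rule, with 43283, 37964 and 51005 in irradiated juveniles and 18976, 20055 and 18189 in controls (1.21 ± 0.12, adjusted p = 5.9e-05). Of 22 tested germline and piRNA genes 2 fell (9.09%, under the 11.1% of all genes) and none rose. None rose at an unadjusted p under 0.05 either, or by DESeq2 or limma voom. In this list 1 gene fell without control library 2 or any one of the irradiated libraries. Spne-2, for the spindle-E helicase that guards the germline against transposons in Drosophila, had 16.2, 23.9 and 30.5 in irradiated juveniles and 239, 506 and 195 in controls (−3.68 ± 0.45, adjusted p = 0.000215), and its log2 fold change was −3.16 without control library 2. Proteins of retroelements and transposons fell in 38 of 437 tested cases and rose in 12 (median −0.24), both under the background share. The falls were 22 to 25 without control library 1 or irradiated library 1 or 2, and the rises 6 or 7 without control library 1 or 3 or irradiated library 2. Rtxe-24 had a log2 fold change of −3.79, and of −3.19 without control library 2.

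**Figure D4:**
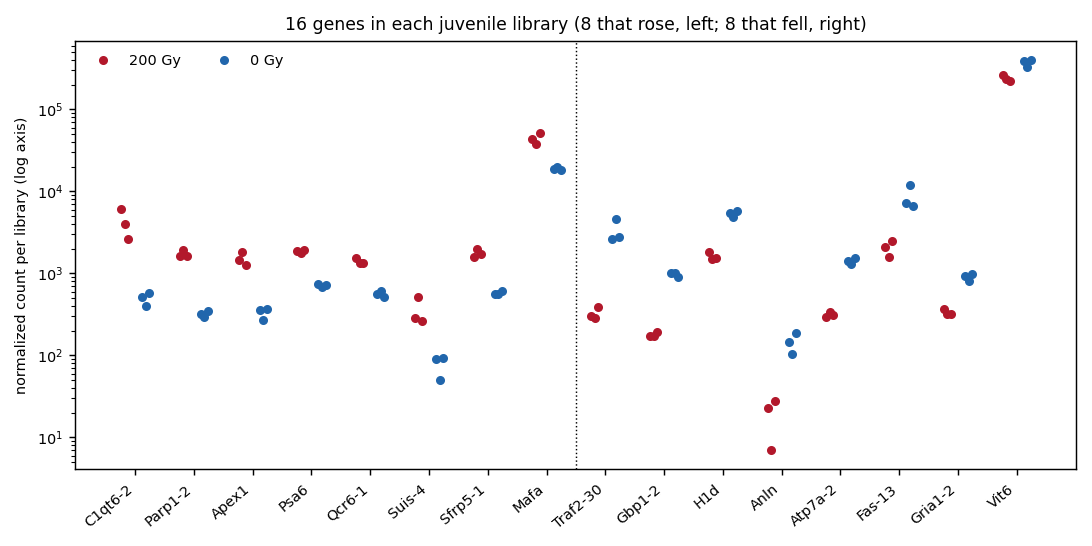
Normalized counts of 16 genes in each of the 6 juvenile libraries on a log axis, 200 Gy libraries in red to the left of the 0 Gy libraries in blue for each gene. The 8 genes left of the dotted line lie higher in all 3 200 Gy libraries than in any 0 Gy library, and the 8 to its right lie lower. The naming rule took only genes without overlap, so this separation is no finding.

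The remaining genes with the largest changes belong to no list or to several. Among rises, Cnn3-2, a calponin, had 124, 105 and 85.8 normalized counts in irradiated juveniles and 18.2, 20.2 and 16.5 in controls (2.52 ± 0.31, adjusted p = 0.000215). Nps3a-1 had 148, 208 and 150 in irradiated juveniles and 23.4, 40.5 and 27.5 in controls (2.48 ± 0.52, adjusted p = 0.00469). Moxd1-6, a monooxygenase, had 63.6, 81.4 and 152 in irradiated juveniles and 27.2, 9.34 and 21.3 in controls (2.35 ± 0.46, adjusted p = 0.00331). Of these 3 genes Moxd1-6 had the widest spread between irradiated libraries. Among falls, Ttc22-14, a tetratricopeptide repeat protein, had 51.7, 57.6 and 66.7 in irradiated juveniles and 665, 483 and 508 in controls (−3.22 ± 0.22, adjusted p = 6.1e-06). Nwd1-7 had 226, 153 and 339 in irradiated juveniles and 471, 7318 and 473 in controls, so that its log2 fold change of −3.50 (adjusted p = 0.0117) was −0.95 (adjusted p = 0.0320) without control library 2, and its call was lost without irradiated library 2 (adjusted p = 0.0511). Nostn-1 had a log2 fold change of −3.52 with that control and of −2.11 without it. Plmn-27 was at −3.83, and at −4.80 without irradiated library 2, and Svep1-55 was at −3.66, and at −4.54 without irradiated library 3.

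Unchar_206 and Unchar_2463, outside the naming rule because they have no name and chosen after their values were seen, rose further than any gene the naming rule took, with log2 fold changes of 4.48 (7048 normalized counts on average in irradiated juveniles and 317 in controls) and 4.05 (1964 and 117). What they encode is not given in the sources used here.

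Of 102 families with at least 15 tested genes of the same name, 22 had more than 2 times the background share of falls and 1 had more than 2 times that of rises. Large shares of falls were in Par14, a poly(ADP-ribose) polymerase family of antiviral defence, where 23 of 36 were lower, and in Rn213 (16 of 26). Adhesion GPCRs (Agrd1, 10 of 28), glycine receptors (Glra3, 5 of 16), hemicentins (Hmcn1, 8 of 30), Svep1 (15 of 55) and Vwde (12 of 51) also passed that limit. The family past the limit for rises was Fbp3, the fibropellins, secreted proteins of the extracellular layer in sea urchins, which was split, with 5 of 21 higher, 4 lower and a median log2 fold change of −0.10. Fbp3-5 rose by 1.08 and Fbp3-11 by 1.15.

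Where the larvae were set beside the juveniles, the difference between the responses was tested in the same fit, and age and dose cannot be told apart in it. The juvenile response was higher than the larval one for 389 genes (1.87%) and lower for 333 (1.6%), 722 in all, a number that was 210 to 578 when a juvenile library was left out and lowest without control library 1. Among ciliary genes it was higher for 28 of 94 and lower for none: their median log2 fold change was 0.50 in juveniles and 0.00 in larvae, and for Dyi3-1 the difference was 1.06 (adjusted p = 0.0113). It was higher for 12 of 79 cytosolic ribosomal protein genes (medians −0.06 and −0.52) and for 9 of 56 nucleolar assembly genes (0.54 and −0.23). It was lower for 16 of 216 antiviral genes, 13 of 192 Toll and NF-kB genes and 12 of 448 E3 ligase genes. These counts per list were not followed through the settings. At an adjusted p of 0.01 or less 10 of the 722 genes remained. Gbp1-2 (difference −2.69, adjusted p = 0.000117), Atp7a-2 (−2.71, adjusted p = 0.00194) and Fcgbp-5 (−4.52, adjusted p = 0.000117) fell in juveniles. Their larval log2 fold changes were 0.25 (Gbp1-2), 0.53 (Atp7a-2) and 2.31 (Fcgbp-5). For the respiratory chain list, with 1 of 65 higher and none lower, and the proteasome, with 2 of 36 higher and none lower, few differences passed the test, and their larval medians were 0.35 and 0.49. In all, 186 of the juvenile rises and 218 of the falls were also called in larvae in the same direction, and 5 and 10 in the opposite one.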

How the data were processed

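RNA of 12 libraries was sequenced, and the 6 juvenile libraries are the subject here. Per the methods, the authors mapped the reads to their annotated genome with CLC Genomics Workbench, and deposited for each library the total gene reads (whole counts of exon plus intron reads, not normalized) and TPM, which that software computed. The submitters' processing notes also name DESeq2. How reads of near-identical copies were shared is not given in the sources used here.

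Statistics used edgeR 4.0.16 under R 4.3.3. Of 27463 genes, 20780 with 99.9% of reads passed filterByExpr with the 4 groups as its design. Libraries were scaled by TMM (factors 0.931 to 1.07), and all 12 were fitted with 1 mean per group by the quasi-likelihood test, two-sided, with Benjamini-Hochberg adjustment over all genes tested. The biological coefficient of variation was 0.208. As a mean over genes above a minimum of reads, squared differences between pools of a group were 9.15 to 36.2 times counting noise. Such a mean does not tell for how many genes depth set the error. An exact permutation test of 3 against 3 libraries cannot go below p = 0.1. The p-values measure the spread between pools. The code was tested on simulated counts.

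The 53 gene lists were written from gene names, and 105 genes are in more than 1 list. The members and lists were chosen with earlier results of these data known. Genes were named by a rule. From the called genes whose groups did not overlap, with at least 80% of reads in a unique place and a name, it took the 12 largest rises and falls by fold and the 6 by count (mean of at least 50 normalized counts), up to 3 members per list and direction with the smallest p, and 2 per family of at least 15 tested genes with more than 2 times the background share of calls (mean of at least 20). Genes outside it were chosen after their values were seen. Some genes and families are not reported here. TPM was only summed over lists or given as medians of called genes.

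Alternatives were DESeq2's size factors, library totals, all genes with a count, only genes with 10 counts or more in each juvenile library, DESeq2 1.42.0 (Wald test), limma 3.58.1 (voom), the juvenile libraries alone, a replicate block, thinning to 7675726 reads, unique reads, exon reads, leaving out each juvenile library, and an adjusted p of 0.01 or less. Deposited RPKM was not used.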

Additional observations from a re-analysis of the deposited data

Results flagged for a closer look

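For 7 of the genes named for the size of their change, juveniles and larvae responded differently when the difference itself was tested with edgeR (log2 units, juvenile minus larval), and age and dose cannot be told apart. The difference was 1.89 for C1qt6-2 (adjusted p = 0.0141), 2.97 for Moxd1-6 (0.0196) and 0.90 for Parp1-2 (0.0181). It was −2.20 for Traf2-30 (0.0119), −2.19 for Trpa1-12 (0.0315), −3.48 for Tsp1-17 (0.0195) and −5.59 for Ttc22-14 (0.00116), whose larval log2 fold change was 2.37. Over all genes tested the juvenile response was higher for 1.87% and lower for 1.6%. These genes were picked by their juvenile change, which is part of the difference tested, so the choice itself favours a difference. Of the 7, only Ttc22-14 passed an adjusted p of 0.01.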

How the results depend on the processing

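Every gene the naming rule picked kept its direction in every setting tried except Mcm10, whose log2 fold change was −0.058 on exon reads alone (adjusted p = 0.895, against 1.08 on all reads). Of these 291 genes, 235 kept their call in every setting that tested them. Genes named outside the rule were not followed through the settings. Between 63.3% and 100% of the genes reported lower, and between 63.6% and 98.3% of those reported higher, were called again in the same direction at an adjusted p of 0.05. When 1 juvenile library was left out, 1511 to 1882 genes were lower, 1463 to 1938 higher, and 210 to 578 differed in response between the 2 stages, against 722 with all libraries. Irradiated library 1 moved the first 2 counts most. A threshold of 0.01 left 1086 lower, 1150 higher and 10 that differed between stages. DESeq2 called 1496 genes different between stages. With the replicate block 1899 genes were lower, 1892 higher and 232 differed between stages. Replicate numbers did not pair the juvenile libraries (correlations of deviations of same-numbered libraries 0.0052, 0.0024 and −0.066), so they share only a number. Among calls of single genes, Sspo-20 (adjusted p = 0.0733) and Nwd1-7 (0.136) were lost with the block. DESeq2 gave neither gene an adjusted p, so both calls were lost there too. With limma voom Nwd1-7 was lost (adjusted p = 0.0755) and Sspo-20 was kept (0.0423). The median log2 fold change of all genes was −0.05 under each of the other scalings, against −0.04. With 3 pools a group, small changes of low genes were not detectable.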
